A study of Mus musculus with 20 samples.

Results

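The 10 genes described here encode the core of the MYD88 signalling complex: the adaptors Myd88 and Tirap, the kinase genes Irak4, Irak1 and Irak2, their inhibitory relative Irak3, the ubiquitin ligase gene Traf6, the kinase complex genes Map3k7 (TAK1) and Tab2, and the transcription factor gene Irf5. They were chosen by symbol from a list, in a series whose results were already known, and all 10 were found among 23382 gene symbols. All 10 also passed the filter on low values, at least 1 TPM in at least 5 libraries, which 11386 genes passed. RNA had been sequenced from sorted mouse germinal centre B cells, in 4 groups of 5 libraries each. All 4 groups carried 1 copy of Cgamma1Cre, a Cre recombinase expressed from the immunoglobulin Cγ1 locus and active in germinal centre B cells. Controls (Cgamma1Cre +/-, Myd88L252P WT) had no Myd88 L252P allele, and mutants (Cgamma1Cre +/-, Myd88L252P +/-) had 1. Centroblasts were gated as B220+FAS+GL7+CXCR4+CD86- and centrocytes as B220+FAS+GL7+CXCR4-CD86+. The sources used here do not give age, sex, tissue or immunisation. Nothing in the labels ties the 5 libraries of a group to separate animals, so p-values here speak of the variation among these samples, which may be technical.

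MYD88 links Toll-like receptors and receptors of the interleukin-1 family to NF-kB. After a receptor is engaged, MYD88 molecules gather IRAK4 through their death domains, IRAK4 activates IRAK1 and IRAK2, and these engage TRAF6, whose ubiquitin chains recruit TAK1 through TAB2. IRF5 binds MYD88 as well and, once activated, drives genes of inflammatory cytokines. In B cells this route serves the nucleic acid receptors TLR7 and TLR9. The L252P allele is the mouse counterpart of a recurrent mutation of human B cell lymphomas, in which the TIR domain of MYD88 assembles the complex without a ligand.

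The sequences below show the altered codon and the promoters of the 3 genes called higher in centrocytes of both genotypes and of Myd88. In the Myd88-201 transcript (GENCODE M21) the residue changed in L252P is a leucine, read from codon CTG in exon 5 of 6. The codon lies at chr9:119337491-119337493 on the minus strand of GRCm38, and capitals mark it in the wild-type transcript sequence, printed 5′ to 3′.
Myd88 codon changed in L252P: caacagaagcgaCTGattcctattaaatac
TPM per gene holds no base calls, so the allele could not be read in these files and its transcript was not told apart from the wild-type one. The next 4 lines give the 250 bases before the RefSeq start (GRCm38.p6) of Irf5, Irak2, Irak3 and Myd88. Irf5 is on the plus strand (chr6:29526375-29526624), as is Irak2 (chr6:113638217-113638466). Irak3 (chr10:120202131-120202380, the outer of its RefSeq starts) and Myd88 (chr9:119340019-119340268) are on the minus strand. Capitals mark a match to the interferon-stimulated response element core, which is GAAA, any 2 bases and GAAA.
Irf5 promoter: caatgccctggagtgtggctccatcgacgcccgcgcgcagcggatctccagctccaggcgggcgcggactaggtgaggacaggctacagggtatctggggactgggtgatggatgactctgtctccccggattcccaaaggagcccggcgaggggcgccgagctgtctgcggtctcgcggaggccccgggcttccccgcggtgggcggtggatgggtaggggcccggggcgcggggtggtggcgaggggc
Irak2 promoter: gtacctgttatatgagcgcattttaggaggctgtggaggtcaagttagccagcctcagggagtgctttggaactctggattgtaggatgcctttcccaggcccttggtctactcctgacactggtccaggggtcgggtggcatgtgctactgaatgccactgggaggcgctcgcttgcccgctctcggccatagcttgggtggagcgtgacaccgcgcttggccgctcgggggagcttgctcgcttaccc
Irak3 promoter: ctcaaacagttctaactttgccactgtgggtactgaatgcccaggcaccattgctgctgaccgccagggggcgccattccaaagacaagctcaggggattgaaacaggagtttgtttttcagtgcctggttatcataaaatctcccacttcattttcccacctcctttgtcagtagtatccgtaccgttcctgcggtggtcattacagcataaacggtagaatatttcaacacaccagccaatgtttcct
Myd88 promoter: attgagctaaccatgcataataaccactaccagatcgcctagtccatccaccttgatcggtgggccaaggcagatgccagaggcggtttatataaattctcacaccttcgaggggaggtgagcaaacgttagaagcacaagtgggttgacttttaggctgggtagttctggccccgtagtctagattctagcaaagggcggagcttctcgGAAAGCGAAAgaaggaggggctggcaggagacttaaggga
Both strands were searched for this core and for the NF-kB consensus site, and matches to the 2 motifs did not overlap in any of the 10 genes. Myd88 held 1 core, with 30 bases between it and the RefSeq start. The annotated GENCODE gene of Myd88 reaches farther upstream, to chr9:119341411, so the printed window lies inside it. Of all 27025 genes with a promoter window, 3.46% hold such a core and 8.23% an NF-kB site. Irak1 and Map3k7 each held an NF-kB site, that of Irak1 matching at the same bases on both strands, while the 3 other windows printed above hold neither motif. A match is a description of these letters, and none of the files here measured binding.

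The labelled cell type was checked against germinal centre B cell markers. Bcl6, the transcription factor gene that marks germinal centre B cells, was between 154 and 387 TPM in the 20 libraries. S1pr2, a receptor that keeps B cells in the germinal centre, was between 247 and 459 TPM. TPM is a transcript level corrected for transcript length that adds up to the same total in each file, so the levels of different genes can be set side by side, while read depth is unknown. The number of genes above 0 per library ran from 12719 to 14092.

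Mutant centroblast libraries 4 and 5 stood apart, and this touched most of the complex. They held the fewest genes above 0 (12895 and 12719), and their values fell below those of mutant centroblasts 1 to 3 the more, the longer the transcript. On the log2(TPM + 1) scale the median deviation of tested genes was 0.02 and 0 for the quintile of genes with the shortest transcripts and -0.56 and -0.92 for the quintile with the longest. Tab2 (longest transcript 4380 bases) deviated by -0.80 and -1.40, Traf6 (6169 bases) by -0.57 and -1.34, and Tirap (4589 bases) by -0.76 and -1.16. Irf5, the member with the shortest transcript (2241 bases), deviated by 0.04 and -0.04, and Myd88 (2458 bases) by -0.26 and -0.44. The tests that include these libraries are therefore given with and without them where the value or the call moves.

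**Figure D1:**
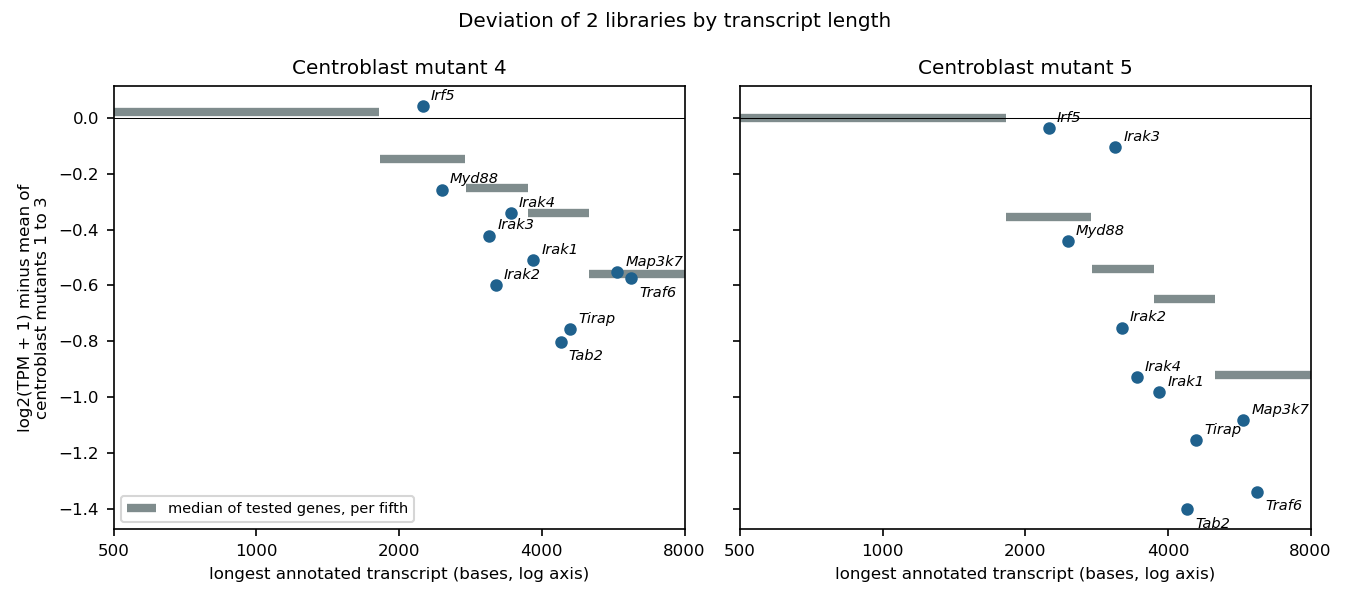
Deviation of mutant centroblast libraries 4 (left) and 5 (right) from the mean of mutant centroblasts 1 to 3 on the log2(TPM + 1) scale, against the longest annotated transcript in bases on a log axis. Points are the 10 genes and grey bars the median of tested genes in each quintile of transcript length; Irf5 lies near 0 in both libraries while Tab2 reaches -0.80 and -1.40.

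The genes of the complex were transcribed at very different levels, with the means of Irf5 and Tab2 highest and that of Irak3 lowest in all 4 groups. In control centroblasts Irf5 was highest at 211 ± 19.1 TPM (mean ± SD, n = 5 here and below). Tab2 followed at 117 ± 10.6, Myd88 at 82.5 ± 9.37, Irak1 at 59.6 ± 3.81 and Map3k7 at 41.9 ± 3.99 TPM. Neighbours in this part of the order had ranges that lay apart. Tirap (32.5 ± 3.35 TPM), Traf6 (31.4 ± 2.62) and Irak4 (25.8 ± 2.16) came next, and the ranges of Tirap and Traf6 and of Traf6 and Irak4 overlapped. Irak2 (15.2 ± 1.87 TPM) and Irak3 (2.08 ± 0.819 TPM) were lowest, each apart from the gene above. In mutant centroblasts each neighbour from Tab2 down to Irak2 overlapped the next. Without mutant libraries 4 and 5 the order there was that of control centroblasts, with overlap for the same 2 pairs. The ranges of Irak1 and Myd88 overlapped in control and in mutant centrocytes, as did those of Irak4, Traf6 and Irak2. Over the 20 libraries Myd88 spanned 1.56-fold from lowest to highest, Tab2 3.50-fold and Irak3 16.3-fold. Over the 18 libraries without mutant centroblasts 4 and 5 these spans were 1.41, 1.37 and 12.9.

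**Figure D2:**
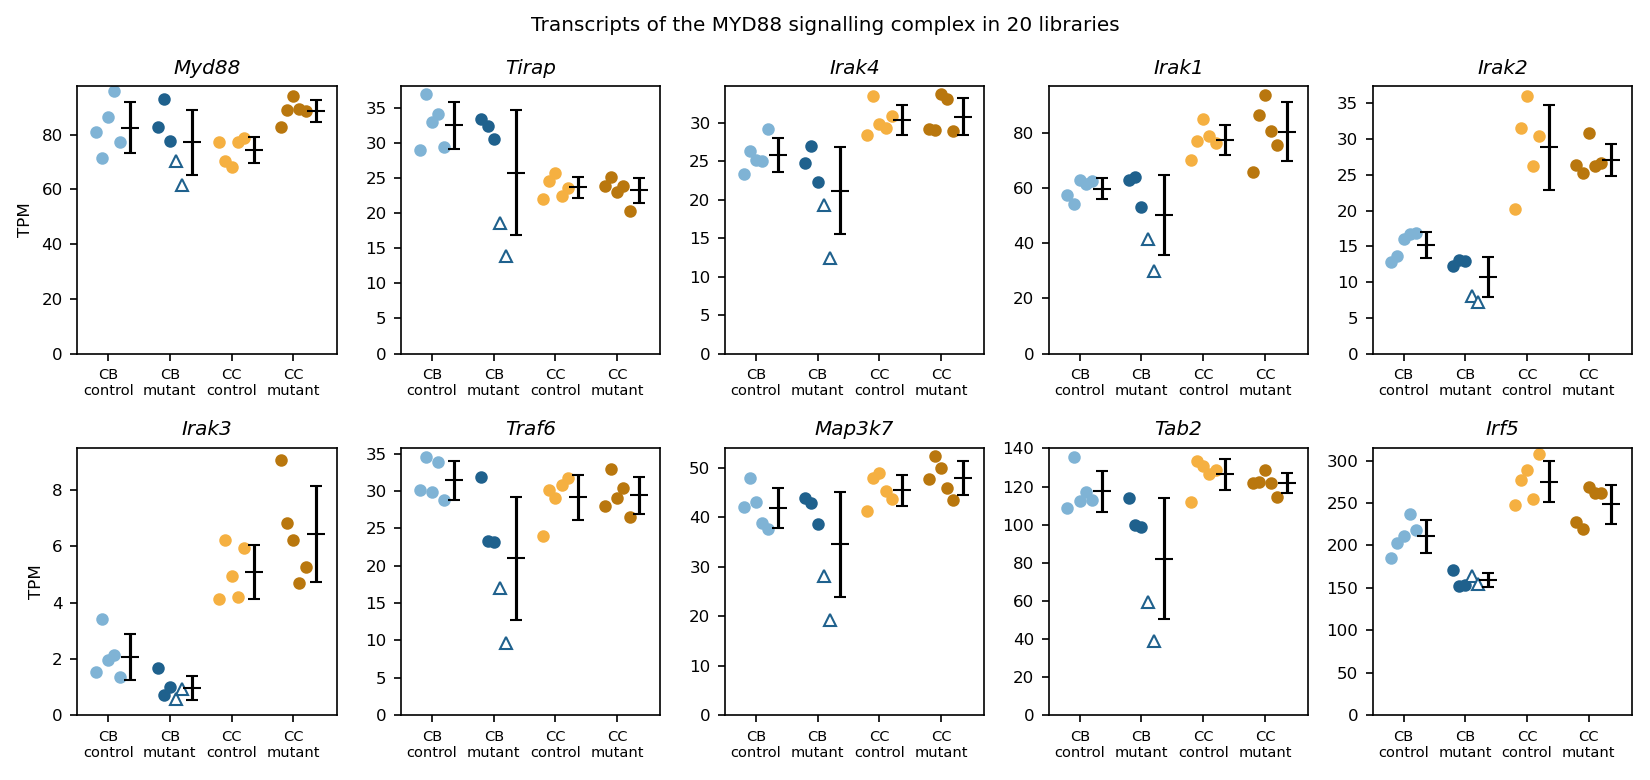
TPM of the 10 genes in each library (points) with the group mean ± SD (black), for centroblasts (CB, blue) and centrocytes (CC, orange), controls in the lighter and mutants in the darker shade. Open triangles are mutant centroblast libraries 4 and 5; the 5 mutant centroblasts lie below the 5 controls for Irf5 (153 to 171 against 185 to 237 TPM), and centrocytes lie above centroblasts of their genotype for Irak1, Irak2, Irak3 and Irf5.

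Centrocytes were compared with centroblasts of the same genotype to see how the complex differs between the light and the dark zone. In controls, Irak3, Irak2 and Irf5 were higher in centrocytes. IRAK3 (also called IRAK-M) lacks kinase activity and restrains the complex. Irak3 in control centroblasts 1 to 5 was 1.53, 3.43, 1.94, 2.14 and 1.35 TPM, and in control centrocytes 4.12, 6.23, 4.95, 4.19 and 5.94 TPM. The lowest centrocyte library lay above the highest centroblast library. The ratio of the means was 2.45 and the log2 fold change 1.01 ± 0.19 (SE; limma, adjusted p = 4.85e-04). On this scale, log2(TPM + 1), changes of low genes such as Irak3 are understated.

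Irak2, which sustains the signal after IRAK1 is used up, was 12.8, 13.6, 16.1, 16.7 and 16.9 TPM in control centroblasts. In control centrocytes it was 20.2, 31.5, 36.0, 26.2 and 30.4 TPM, again without overlap. Its log2 fold change was 0.87 ± 0.16 (limma, adjusted p = 3.75e-04). Irf5 was 185, 202, 211, 237 and 218 TPM in control centroblasts and 247, 277, 289, 255 and 308 TPM in control centrocytes. All 5 centrocyte libraries were above all 5 centroblast libraries, with a log2 fold change of 0.39 ± 0.08 (limma, adjusted p = 0.00139). The 3 genes called of 10 stand against 30.7% of all tested genes called in either direction and 21.2% called higher, so this share is near the background. The members' median log2 fold change was 0.17, beside 0.14 over all tested genes.

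The other 7 genes did not pass the test in controls. Irak1 was 54.0 to 62.8 TPM in control centroblasts and 70.1 to 85.0 TPM in control centrocytes (0.37 ± 0.15, adjusted p = 0.0659), without overlap. Tirap, which bridges MYD88 to TLR2 and TLR4, was the only member whose centrocytes all lay below its centroblasts, at 22.0 to 25.7 against 28.9 to 36.9 TPM (-0.44 ± 0.17, adjusted p = 0.0588). In controls 5 of the 10 genes had zones that did not overlap, beside 26.5% of all tested genes. Irak4, the kinase that starts the cascade, was 25.8 ± 2.16 and 30.4 ± 1.95 TPM (0.23 ± 0.14, adjusted p = 0.226). For Myd88 the interval of the log2 difference ran from -0.35 to 0.06, for Traf6 from -0.51 to 0.29, for Map3k7 from -0.21 to 0.44 and for Tab2 from -0.29 to 0.50 (95% intervals).

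Libraries 4 and 5 of the mutant centroblasts enter this comparison only through the shared estimate of spread. Without them Irak1 (adjusted p = 0.00148) and Irak4 (adjusted p = 0.0243) were called higher and Tirap (adjusted p = 2.36e-04) lower, with 47.6% of all tested genes called. Median-of-ratios scaling of the libraries moved the median of all genes from 0.14 to 0.01. The higher share of called genes went from 69.2% to 50.5%. The calls were then 2 higher (Irak2 and Irak3) and 2 lower (Tirap at -0.58 and Myd88 at -0.28), beside 35.6% of all tested genes. Irf5 was at 0.24 (adjusted p = 0.0897).

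In mutants 8 of the 10 genes were higher in centrocytes, against 61.5% of all tested genes called in either direction and 48.8% called higher. Irak3 in mutant centroblasts 1 to 5 was 1.67, 0.705, 0.995, 0.558 and 0.941 TPM, and in mutant centrocytes 9.09, 6.83, 6.24, 4.70 and 5.27 TPM. The lowest mutant centrocyte library lay above the highest mutant centroblast library, with a log2 fold change of 1.91 ± 0.19 (limma, adjusted p = 9.61e-08). Irak2 was 12.2, 13.0, 13.0, 8.07 and 7.17 TPM in mutant centroblasts and 26.4, 25.3, 30.9, 26.2 and 26.6 TPM in mutant centrocytes (1.30 ± 0.16, adjusted p = 1.47e-06). Irf5 was 171, 153, 153, 164 and 155 TPM in mutant centroblasts and 228, 220, 269, 262 and 262 TPM in mutant centrocytes (0.64 ± 0.08, adjusted p = 2.48e-06). None of these 3 genes had zones that overlapped, nor did Irak1, Irak4 and Tab2, beside 36.6% of all tested genes without overlap. The zones of Myd88, Tirap, Traf6 and Map3k7 overlapped.

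Irak1, the kinase that carries the signal to TRAF6, rose by 0.71 ± 0.15 (adjusted p = 4.44e-04) and Irak4 by 0.56 ± 0.14 (adjusted p = 0.00201) on the log2 scale. The calls of Tab2 (0.67, adjusted p = 0.00457), Traf6 (0.56, adjusted p = 0.0154) and Map3k7 (0.52, adjusted p = 0.00729) rested in large part on libraries 4 and 5. Without those 2 libraries Tab2 kept its call at 0.23 (adjusted p = 0.0199), and Traf6 (0.18, adjusted p = 0.197) and Map3k7 (0.19, adjusted p = 0.075) lost theirs. Tirap was then called lower, at -0.45 (adjusted p = 5.72e-04) instead of -0.07. Irak3 (1.80), Irak2 (1.03), Irf5 (0.64), Irak1 (0.41) and Irak4 (0.31) stayed called, and 50.7% of all tested genes were called. Median-of-ratios scaling moved the median of all genes here from 0.34 to 0.02 and the higher share of called genes from 79.5% to 50.7%. It gave 6 members higher and 1, Tirap, lower, beside 58.5% of all tested genes called. In sorted bulk RNA, fewer cells of a type and less RNA per cell cannot be told apart.

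**Figure D3:**
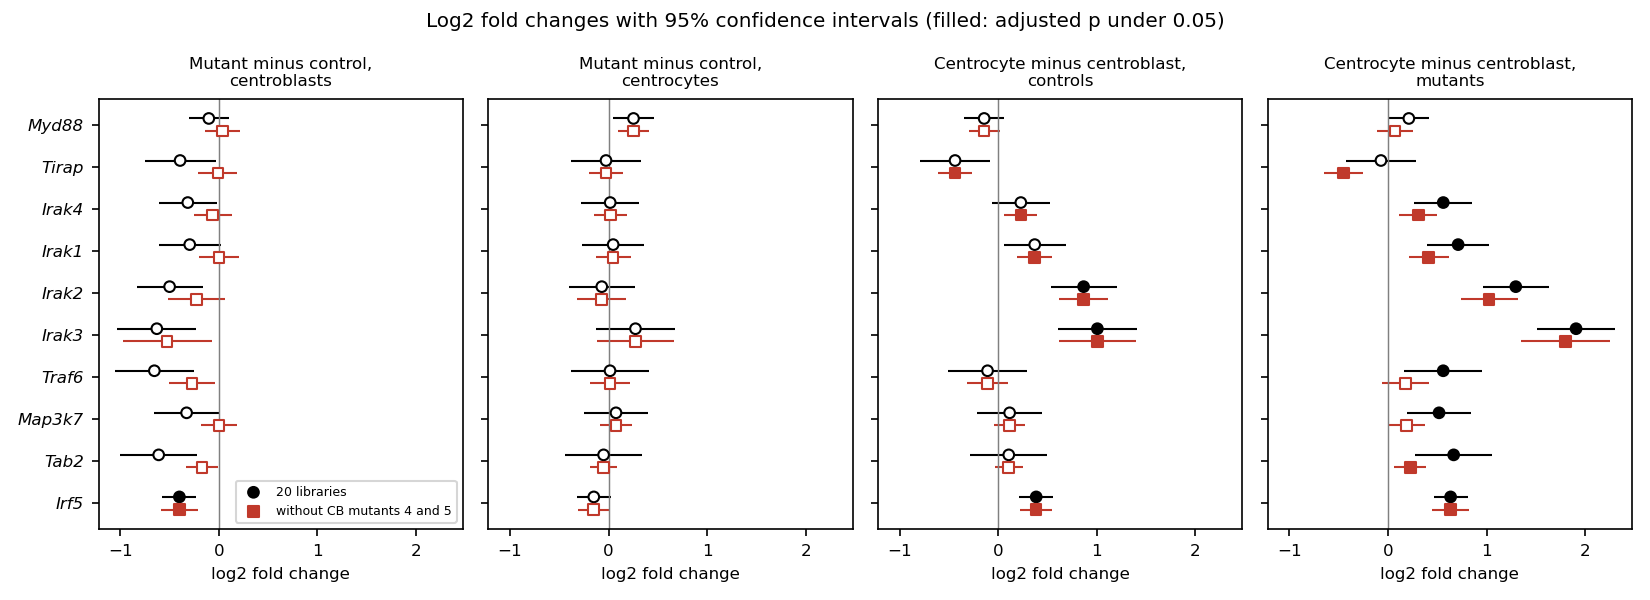
Log2 fold changes of the 10 genes on the log2(TPM + 1) scale with 95% confidence intervals, for genotype in each cell type and for zone in each genotype. Black circles use 20 libraries and red squares leave out mutant centroblasts 4 and 5, and filled symbols have a limma adjusted p under 0.05; Irf5 in centroblasts stays at -0.40 under both, while Tab2 moves from -0.61 to -0.17.

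Irak2 and Irak3 made up a larger mean share of the IRAK transcripts in centrocytes. Summed TPM of the 4 IRAK genes was 103 ± 6.20 in control centroblasts and 142 ± 12.3 in control centrocytes, and 83.0 ± 22.9 and 145 ± 13.0 in mutants. Without mutant libraries 4 and 5 the centroblast sum was 98.4 ± 8.09 (n = 3). As a share of that sum, Irak2 was 14.8% ± 0.994 in control centroblasts and 20.2% ± 2.55 in control centrocytes. In mutants it was 13.0% ± 1.34 and 18.8% ± 1.21, and in both genotypes the lowest centrocyte library lay above the highest centroblast library. Irak3 made up 2.05% ± 0.879 and 3.58% ± 0.557 in controls, where the zones overlapped, and 1.22% ± 0.522 and 4.50% ± 1.47 in mutants, where they did not. The mean share of Irak4 was lower in centrocytes, at 25.1% ± 1.58 and 21.5% ± 1.53 in controls and 25.5% ± 1.32 and 21.3% ± 1.30 in mutants. Irak1 was the largest share in every library, between 50.4% and 61.9%. These shares are set within each library, so scaling between libraries does not enter them, and no test was run on them. Without mutant libraries 4 and 5 the mean shares in mutant centroblasts were 13.0% for Irak2, 1.15% for Irak3 and 25.1% for Irak4.

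**Figure D4:**
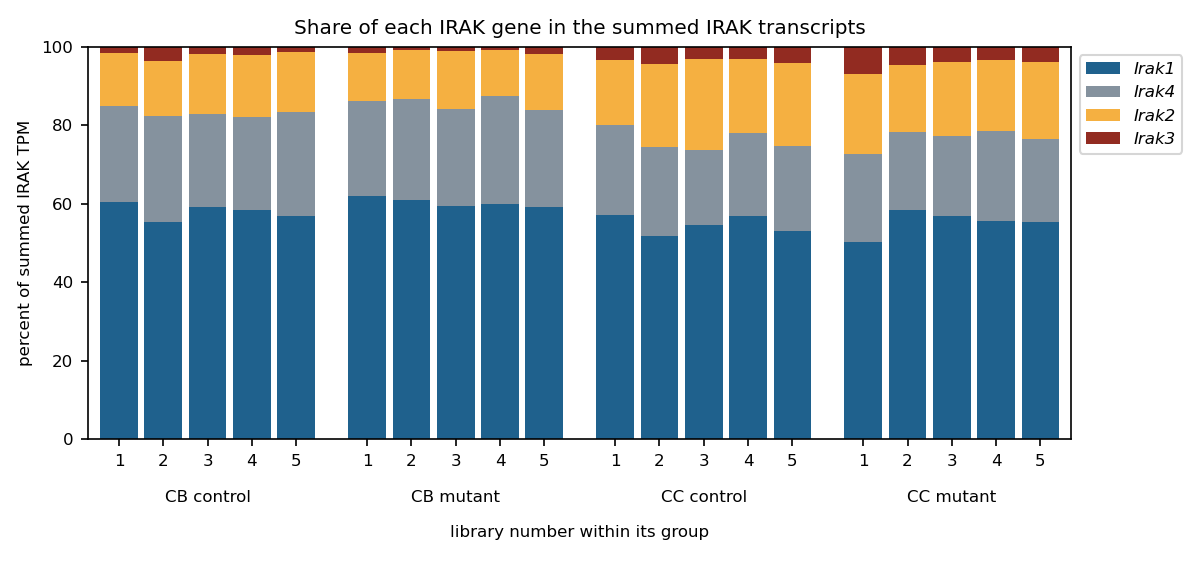
Share of Irak1, Irak4, Irak2 and Irak3 in the summed TPM of the 4 genes, in percent, 1 bar per library in the 4 groups. The Irak2 share is 13.5% to 15.8% in control centroblasts and 16.5% to 23.1% in control centrocytes.

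The next comparison was the effect of the allele in centroblasts. Irf5 was lower in mutant centroblasts and was the only member called. Its 5 mutant libraries (153 to 171 TPM) all lay below its 5 controls (185 to 237 TPM), and the mean was 24.5% lower. The log2 fold change was -0.40 ± 0.08 (95% interval -0.57 to -0.23, limma, adjusted p = 0.0119). Without mutant libraries 4 and 5 it was -0.40 as well (adjusted p = 0.0141). Of all tested genes 3.38% were called lower and 4.29% in either direction, the higher ones being 21.1% of those called (44.8% after median-of-ratios scaling), and for 2.99% all mutant centroblasts lay below all controls. The call ended in a fit of the centroblast libraries alone (limma, adjusted p = 0.109) and after median-of-ratios scaling (-0.22, adjusted p = 0.208). The scaling moved the median of all genes from -0.16 to 0.01 and called Traf6 (-0.48) and Tab2 (-0.43) instead. It divides each library by a size factor, 0.79 and 0.64 for mutant libraries 4 and 5 and 0.94 to 1.17 for the others. Before scaling, Irf5 in libraries 4 and 5 deviated from mutant centroblasts 1 to 3 by 0.04 and -0.04.

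The 3′ end of the annotated Irf5 gene overlaps Tnpo3, a nuclear import receptor gene on the opposite strand. The libraries came from a stranded kit, and the sources used here do not give the strand setting of the counting. Tnpo3 was 97.8 ± 9.91 TPM in control and 76.7 ± 26.5 TPM in mutant centroblasts, and 94.2 TPM in the mutants without libraries 4 and 5. Erythroid transcripts differed between the same groups. The summed TPM of 8 erythroid markers was 22.8 to 270 in control and 323 to 805 in mutant centroblasts, almost all from the beta globin gene Beta-s, and their part in the result was not tested.

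The other 9 genes had negative log2 fold changes in mutant centroblasts but were not called, and Myd88 turned to 0.08 after median-of-ratios scaling. Traf6, the ubiquitin ligase of the complex, was 30.1, 34.6, 29.8, 33.9 and 28.7 TPM in controls and 31.9, 23.3, 23.1, 17.0 and 9.60 TPM in mutants. Mutant library 1 lay within the controls, and the other 4 lay below them (-0.65 ± 0.19, adjusted p = 0.0537). Tab2, which tethers TAK1 to ubiquitin chains, was 109, 136, 112, 117 and 113 TPM in controls and 114, 99.8, 98.7, 59.2 and 38.7 TPM in mutants. Again only mutant library 1 reached the controls (-0.61 ± 0.19, adjusted p = 0.0634). Without mutant library 1, 7 members were called lower (these, Irf5, Irak3, Irak2, Tirap and Map3k7), beside 27.2% of all tested genes called. The count was 4 without library 2 and 3 without library 3, both with Traf6 and Tab2 among them, beside 7.28% and 4.87% of all tested genes. Irak3 was at -0.63 ± 0.19 (adjusted p = 0.0611), and with a pseudocount of 0.1 in place of 1 it was called at -1.03 (adjusted p = 0.0378). Irak2 was at -0.50 ± 0.16 (adjusted p = 0.0704), with mutant libraries 2 and 3 (13.0 TPM each) inside the controls' range.

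Without mutant libraries 4 and 5 these differences were smaller. Traf6 was then at -0.27 (adjusted p = 0.237), Tab2 at -0.17 (adjusted p = 0.296), Irak2 at -0.23 (adjusted p = 0.493) and Irak3 at -0.52 (adjusted p = 0.232). The members' median went from -0.40 to -0.12, while that of all tested genes went from -0.16 to -0.02. Irak1 changed from -0.30 to 0.0029, Map3k7 from -0.33 to -7.79e-05, Tirap from -0.39 to -0.01 and Irak4 from -0.31 to -0.06. Myd88 was 80.9, 71.6, 86.7, 96.1 and 77.4 TPM in control and 82.8, 93.0, 77.9, 70.4 and 61.8 TPM in mutant centroblasts. These ranges overlapped, and the log2 fold change was -0.10 ± 0.10 with the 2 libraries (95% interval -0.31 to 0.10, adjusted p = 0.48) and 0.04 without them.

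In centrocytes no member was called for genotype, against 1.2% of all tested genes, and 1 of the 10 had an unadjusted p under 0.05, beside 9.61% of all tested genes. That gene was Myd88. It was 77.2, 70.6, 68.1, 77.3 and 78.9 TPM in control and 82.8, 89.0, 94.2, 89.3 and 88.6 TPM in mutant centrocytes. All 5 mutants lay above all 5 controls, as they did for 2.63% of tested genes. The mean was 19.3% higher and the log2 fold change 0.25 ± 0.10 (95% interval 0.05 to 0.46, limma, adjusted p = 0.328). The adjusted p was 0.0409 in a fit of the centrocyte libraries alone, 0.0436 with limma's library weights and 0.0673 without mutant centroblasts 4 and 5. With other pseudocounts or filters it lay between 0.292 and 0.383. In fits that left out 1 library it ran from 0.131 to 0.643, so Myd88 was called in none of these. The 5′ end of Myd88 overlaps Acaa1a on the opposite strand, a gene of peroxisomal fatty acid breakdown. Acaa1a was 53.2 ± 3.75 TPM in control and 54.5 ± 4.12 TPM in mutant centrocytes. The annotated Myd88 gene also overlaps the protein-coding gene Slc22a14 on the same strand, whose level is not given here. The part of either overlap in the Myd88 values was not tested.

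Irf5 in centrocytes was 275 ± 24.7 TPM in controls and 248 ± 22.7 TPM in mutants, with overlapping ranges (-0.15 ± 0.08, adjusted p = 0.653). Irak3 was 5.09 ± 0.975 and 6.43 ± 1.70 TPM (0.27 ± 0.19, adjusted p = 0.829), and mutant library 1 was the highest of all 20 at 9.09 TPM. For the remaining 7 genes the log2 fold changes lay between -0.07 for Irak2 and 0.08 for Map3k7. Their 95% intervals reached at most 0.44 in either direction, the farthest bound being that of Tab2 (-0.44 to 0.34). Without mutant centroblasts 4 and 5, which enter only through the spread, that interval was -0.19 to 0.09. The members' median was 0.02, equal to the median of all tested genes after rounding.

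No member passed the test of whether the effect of the allele differed between centrocytes and centroblasts, a test that 2 genes or 0.0176% of all those tested passed. All 10 differences were positive, apart from Tirap at -0.02 without mutant centroblasts 4 and 5, meaning a higher mutant to control ratio in centrocytes than in centroblasts, and 5 had an unadjusted p under 0.05, beside 11.6% of all tested genes. Without those 2 libraries 2 of the 10 did, beside 5.3% of all. Irak3 had the largest, 0.90 ± 0.27 (95% interval 0.34 to 1.47, limma, adjusted p = 0.403), and kept 0.80 without mutant centroblasts 4 and 5. Myd88 was at 0.35 (adjusted p = 0.403) and at 0.22 without them. Irf5 was at 0.25 in both fits, with a 95% interval of 0.01 to 0.49. Median-of-ratios scaling, which moved the median of all genes here from 0.18 to -0.0079, put Irf5 at 0.038 (adjusted p = 0.932), Myd88 at 0.14 and Irak3 at 0.79. The members' median was 0.39 with the 2 libraries and 0.14 without them, beside 0.18 and 0.04 for all tested genes. The 2 genotype comparisons have no libraries in common.

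Around the complex, 80 genes of its receptors, partners, brakes and targets were measured above the filter, from 93 listed. Centrocytes of controls were higher for 35 of the 80 and lower for 2, beside 21.2% of all tested genes called higher and 9.48% lower. In mutants the test called 56 higher and 4 lower, beside 48.8% and 12.6% of all tested genes. Among the receptors 8 of 12 tested rose in controls and 12 of 12 in mutants. Without mutant centroblasts 4 and 5 it was 11 of 12 in each genotype, beside 33.3% and 35.8% of all tested genes called higher. Tlr7, a sensor of single-stranded RNA, went from 1.26 ± 0.515 to 13.9 ± 4.44 TPM in controls (log2 fold change 2.70, adjusted p = 2.28e-07). Cd180, a receptor related to the Toll-like family, went from 468 ± 44.0 to 856 ± 58.3 TPM (0.87, adjusted p = 1.74e-04), and its partner Ly86 from 397 ± 33.0 to 658 ± 20.2 TPM (0.73, adjusted p = 2.99e-07). Among the brakes 4 of 12 rose in controls and 0 fell. Without mutant centroblasts 4 and 5 the brakes gave 6 higher and 2 lower. The 4 included Tnfaip3 (A20), which removes ubiquitin chains built by TRAF6, from 19.5 ± 2.22 to 46.9 ± 6.97 TPM (1.22, limma, adjusted p = 2.55e-04). The RNase gene Zc3h12a (1.08, adjusted p = 1.73e-04) was among them as well. Among NF-kB subunits and inhibitors 8 of 10 rose in controls, led by Relb (1.12, adjusted p = 2.26e-06), Nfkb2 (1.27) and Nfkbid (1.97).

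The lower genes in control centrocytes were Tifa, an adaptor that engages TRAF6, from 56.2 ± 6.27 to 14.6 ± 1.96 TPM (-1.88, adjusted p = 3.27e-09), and the p38 kinase activator gene Map2k3 (-0.36, adjusted p = 0.0107). Of 11 TAK1 partners and ubiquitin ligases, 3 rose and Tifa was the 1 that fell. Without mutant centroblasts 4 and 5 the counts over the 80 genes were 46 higher and 6 lower for controls, and for mutants 48 and 5. In that fit 33.3% of all tested genes were called higher and 14.3% lower in controls, and 35.8% and 14.9% in mutants. Markers of macrophages, monocytes and neutrophils were also higher in the centrocyte gate. Their 16 genes summed to 43.0 to 63.8 TPM in control and 41.1 to 88.3 TPM in mutant centroblasts, and to 105 to 203 and 83.4 to 202 TPM in the centrocytes. Of 9 tested 7 rose in controls and 6 in mutants, beside 21.2% and 48.8% of all tested genes called higher. C1qa was at 4.42 and 20.1 TPM and Csf1r at 2.73 and 13.7 TPM in the 2 control groups. Vsig4 was at 0 in 18 libraries, S100a8 in 13, Mpo in 12 and S100a9 in 9. Myeloid cells are known to transcribe Irak3, Irf5 and several Toll-like receptor genes, and the part of these cells in the zone results was not tested.

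**Figure D5:**
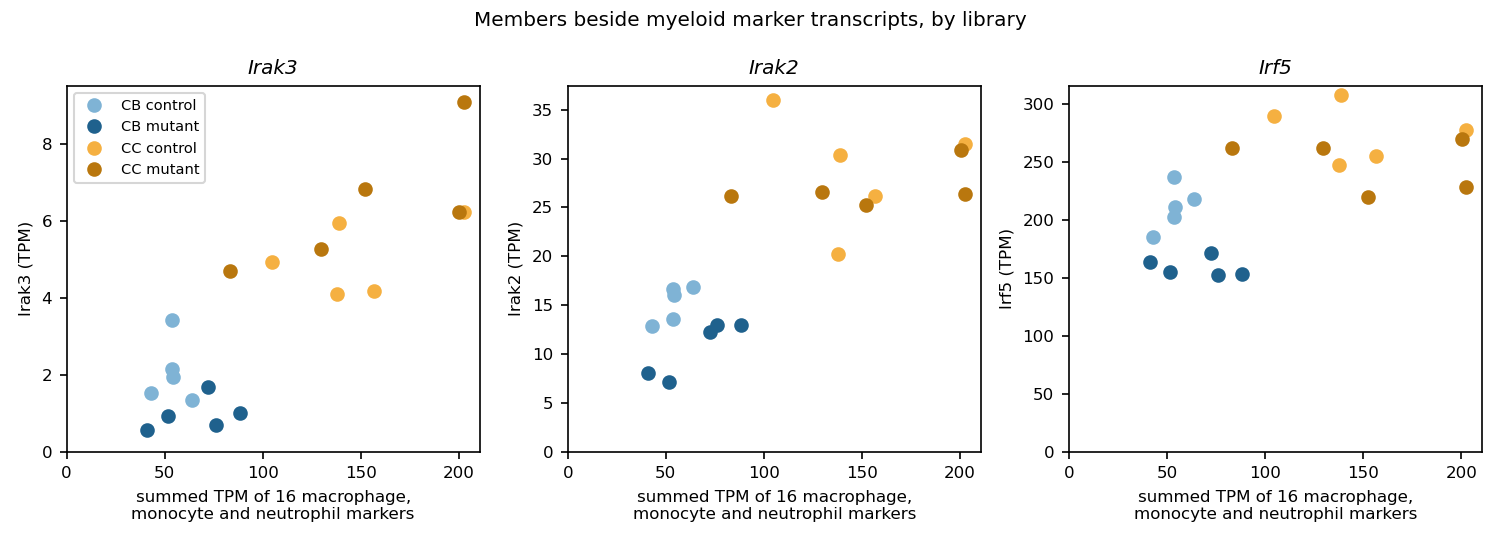
TPM of Irak3, Irak2 and Irf5 against the summed TPM of 16 macrophage, monocyte and neutrophil markers, 1 point per library, coloured by group. Marker sums are 83.4 to 203 TPM in centrocytes and 41.1 to 88.3 TPM in centroblasts, and within each genotype the centrocytes lie above for all 3 genes; among centroblasts the Irf5 values of mutants lie below those of controls (153 to 171 against 185 to 237 TPM) while their marker sums overlap.

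For genotype, 3 of the 80 genes around the complex (3.75%) were lower in mutant centroblasts and none was higher, a share near the 3.38% of all tested genes called lower. Btk, a kinase of B cell receptor signalling known to bind mutant MYD88 in lymphoma cells, fell from 325 ± 18.7 to 241 ± 44.8 TPM (-0.45, limma, adjusted p = 0.0197), and without mutant libraries 4 and 5 it fell by 0.34 (adjusted p = 0.0102). It lost its call without mutant library 5 alone (adjusted p = 0.0536). Lyn, a Src family kinase (-0.42, adjusted p = 0.0342), and Nfkb1 (-0.50, adjusted p = 0.0459) lost theirs without libraries 4 and 5, Lyn also in 6 and Nfkb1 in 17 of the 20 fits that left out 1 library. Without libraries 4 and 5, 5 of the 80 were higher and 1 lower and 3.57% of all tested genes were called. Of the 10 NF-kB subunits and inhibitors, 3 were higher and 0 lower in that fit, beside 2.13% of all tested genes called higher. The median log2 fold change of those 10 was 0.07 with libraries 4 and 5 and 0.38 without them. In mutant centrocytes 1 of the 80 was called. Tlr3, a receptor for double-stranded RNA that signals without MYD88, rose from 3.11 ± 1.57 to 9.01 ± 2.52 TPM (1.32, adjusted p = 0.0042). Without mutant centroblasts 4 and 5, 6 were higher and 1 lower there, beside 3.38% of all tested genes.

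The genes whose pattern was most like that of each member were taken by Pearson's r of log2(TPM + 1) over the 20 libraries. These libraries fall into 2 sorted zones and include mutant centroblasts 4 and 5, both of which enter r, and it is given as a description. For Irf5 they were Rhof (0.972), Rhbdf2 (0.969) and Fam102a (0.957), and Rhof and Fam102a were again among the 3 nearest over the 18 libraries without mutant centroblasts 4 and 5. For Irak2 they were Sumf1 (0.975), Adamts6 (0.974) and Man2b2 (0.974), and for Irak3 Dock10 (0.965), Themis2 (0.962) and Cebpz (0.960). The nearest to Myd88 were Ung (0.837), Abcf2 (0.833) and Prpf31 (0.801), and none of these was among the 3 nearest over 18 libraries. For Tab2, Map3k7 and Traf6 the highest values were 0.991 (N4bp2), 0.985 (Spop) and 0.979 (Ankfy1). Over 18 libraries they were 0.959 (Med13), 0.948 (Sp4) and 0.867 (Celf1). The nearest gene was Trim26 for Irak1 (0.977), Bcar3 for Irak4 (0.965) and Pde3b for Tirap (0.951). Over 18 libraries it was Trim26 again for Irak1 (0.937), but Fbxl19 for Irak4 (0.903) and Abca3 for Tirap (0.961).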

How the data were processed

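RNA sequencing of 20 sorted germinal centre B cell libraries was used. The deposited files give TPM per gene symbol, made by the authors with STAR and the mouse build mm10, per the submitters' processing notes. Tool versions, the annotation and the counting step were not given in the sources used here. Every file sums to the same total TPM, so depth is unknown and no counting interval is given.

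Values were analysed as log2(TPM + 1) in R 4.3.3 with limma 3.58.1 (a trended, robust empirical Bayes fit), with 4 group means over 20 libraries, 16 residual degrees of freedom, two-sided. The 11386 genes that reached 1 TPM in 5 or more libraries were tested, with Benjamini-Hochberg adjustment over all of them and a threshold of 0.05. There were 5 comparisons: genotype in each cell type, the difference of these, and zone in each genotype. The fit was tested on simulated data. No 2 libraries shared more than 0.00562 of their tested values.

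The 10 genes are always named, with up to 4 called genes per surrounding list and comparison, by adjusted p, and the 3 genes most correlated with each member, numbered gene models left out. Neighbours and cell markers are named beside results they touch. The members and lists were chosen with earlier results of these data known. Positions and transcripts are from GENCODE M21, promoters from RefSeq. Some marker genes are not reported here.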

Additional observations from a re-analysis of the deposited data

Results flagged for a closer look

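Irak2 in library 3 of the mutant centrocytes was 30.9 TPM, and the nearest of the other 4 libraries was 26.6 TPM. The gap took up 0.76 of the range of its group, above the critical value of 0.71 for 5 samples. Of 40 combinations of a gene and a group examined this was the 1 found, and chance alone marks about 1 in 20.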

How the results depend on the processing

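Of the members' counts of called genes, that for the difference of the genotype effects was 0 under each alternative. For genotype in centroblasts the count of 1 became 2 with a pseudocount of 0.1, with a filter of 5 TPM and with median-of-ratios scaling. Of all tested genes 4.43%, 5.29% and 5.61% were called then. The count became 0 with only the groups compared, beside 0.211%. For genotype in centrocytes the count of 0 became 1 (Myd88) with library weights and with only the groups compared, beside 5.81% and 2.64% of all tested genes. For zone in controls the count of 3 became 6 with library weights, with only the groups compared and without mutant centroblasts 4 and 5, where 57.1%, 45.9% and 47.6% of all tested genes were called. With median-of-ratios scaling without those 2 libraries, an alternative chosen after seeing the data, it was 7 in controls and 5 in mutants. Of all tested genes 47% and 49.2% were called there. Genes around the complex called for genotype in centroblasts, 3 of 80, became 1 with no filter (1.64% of all tested genes) or with no trend or robust fit (3.22%). They became 10 with median-of-ratios scaling (5.61%), 8 with library weights (7.71%) and 0 with only the groups compared (0.211%). Without mutant centroblasts 4 and 5 they became 6 under either scaling (3.57%, and 4.08% with median-of-ratios). In centrocytes the count of 1 became 2 with a pseudocount of 5 (1.57% of all tested genes) and 4 with median-of-ratios scaling (1.75%). It became 10 with library weights (5.81%) and 5 with only the groups compared (2.64%). Without mutant centroblasts 4 and 5 it was 7 (3.38%), and 6 with that and median-of-ratios scaling (3.57%). Same-numbered libraries correlated over 0.1 in 4 of 5 pairs between zones in each genotype. Their mean r was 0.162 in controls and 0.175 in mutants, beside -0.0404 and -0.0432 for libraries of other numbers. Between genotypes 1 of 5 pairs did so in centroblasts and 3 of 5 in centrocytes. The main fit did not use the numbers as pairs. Its zone errors and p-values therefore treat same-numbered libraries as independent, which these correlations between zones do not bear out. Each library correlated best with its own number in 4 of 5 cases for zones in controls and in 2, 1 and 1 of 5 in the others. A replicate block was fitted by number over all 4 groups for genotype, and by number within each genotype for zone. The block gave 4 members for genotype in centroblasts (Irf5, Traf6, Tab2 and Irak3, all lower) and 5 for zone in controls. Between genotypes in centroblasts the mean r of same-numbered libraries was -0.00768, so the labels and values give no ground for that pairing. Beside these 4 and 5 members, 6.96% and 36.9% of all tested genes were called. The block gave 9 and 5 genes around the complex for genotype in centroblasts and centrocytes, the latter beside 2.13% of all tested genes. Signs turned for small values. With median-of-ratios scaling Myd88 was at 0.082 for genotype in centroblasts and -0.14 for zone in mutants, Irak4 at -0.010 and Traf6 at -0.012 for genotype in centrocytes, and Map3k7 at -0.024 and Tab2 at -0.035 for zone in controls. Library weights put Myd88 at 0.058 in centroblasts and Traf6 at -0.016 in centrocytes for genotype. Without mutant centroblasts 4 and 5, Myd88 (0.038) and Irak1 (0.0029) turned for genotype in centroblasts and Tirap (-0.015) for the difference. With both changes Myd88 was at 0.040, Irak1 at 0.0045 and Map3k7 at 0.0016 for genotype in centroblasts, Irak4 at -0.010 and Traf6 at -0.012 in centrocytes, Tirap at -0.044 for the difference, Map3k7 at -0.027 and Tab2 at -0.038 for zone in controls, and Myd88 at -0.10 for zone in mutants. With 1 library left out, the members called ranged from 1 to 7 for genotype in centroblasts, 3 to 5 for zone in controls and 8 to 9 for zone in mutants, and stayed 0 for the others. The 7 came without mutant centroblast 1, and the count was 4 without library 2 and 3 without library 3. Zone in controls gave 5 without mutant centroblast 1 or 5, beside 33.2% and 41.5% of all tested genes. Genes around the complex ranged from 0 (without control centroblast 2) to 22 (without mutant centroblast 1) for genotype in centroblasts. Of all tested genes 1.29% and 27.2% were called in those 2 fits. In centrocytes the range was 1 to 3 (3 without mutant centrocyte 4, beside 1.73% of all tested genes). For genotype in centrocytes Irak1 ranged from -0.010 to 0.12, Irak2 from -0.19 to 0.015, Irak4 from -0.016 to 0.051, Tirap from -0.054 to 0.020 and Traf6 from -0.050 to 0.050, and Tirap for zone in mutants from -0.26 to 0.039. Over all tested genes, the 488 called for genotype in centroblasts became 24 with only the groups compared, 793 with a replicate block and 878 with library weights, and the 137 in centrocytes became 301, 242 and 662. The cause of these changes was not tested. Since TPM keeps no depth, the precision of Irak3, near 1 TPM in mutant centroblasts, cannot be stated.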

Other observations

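The proportion of Irf5 to Myd88 transcripts, which does not depend on scaling between libraries, is given here as a description. In centrocytes it was 3.72 ± 0.447 in controls (3.21 to 4.25) and 2.80 ± 0.200 in mutants (2.47 to 2.96), and the groups of 5 did not overlap. In centroblasts it was 2.57 ± 0.242 in controls (2.29 to 2.83) and 2.10 ± 0.333 in mutants (1.64 to 2.51), with overlap. Mutant libraries 4 and 5 (2.32 and 2.51) were the 2 that reached the controls, and without them it was 1.89 ± 0.224 (1.64 to 2.07, n = 3), without overlap. The proportion of Myd88 to Irak4 was 2.46 ± 0.257 in control and 2.89 ± 0.165 in mutant centrocytes, and the highest control (2.72) lay above the lowest mutant (2.70). These proportions were chosen after the values of single genes were known, and no test was run on them.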
